A study of Homo sapiens with 8 samples.

Results

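The members are the genes with a LINC name, long intergenic noncoding RNA genes known by a number, that were measured in human podocytes with and without overexpression of the Hippo kinase LATS2. Members were selected on name and level: the whole name had to be LINC and a number, and the pooled level had to reach 0.2 FPKM in at least 1 of the 2 groups, which held for 146 rows with 141 different names, of 858 rows with such a name and 29004 rows in all. FPKM is the count of sequenced fragments of a gene scaled to its exon length and to the depth of the library. The study set 4 LATS2 OE samples against 4 samples without treatment, all from AB8/13, an immortalized line of human podocytes, which are the epithelial cells that wrap the capillaries of the kidney glomerulus. In LATS2 OE samples 125 ng/mL doxycycline had been given for 8 h. Untreated samples had no doxycycline. Both groups carried the same stably integrated, doxycycline-inducible LATS2 wild-type construct from a lentiviral pINDUCER vector, so the drug and the construct cannot be told apart in this comparison. No source used here says whether the samples of a group were separate cultures.

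The table held 1 pooled FPKM value per group. No SD and no test over samples can be had from it, and every difference below is a ratio of 2 pooled values with no replicate check. A row was called higher or lower where the 2 values were at least 1.5-fold apart. LATS2 was the check of the labels, with at least 53.1 FPKM in LATS2 OE and at least 2.64 FPKM in untreated samples, which is 20.1-fold higher. Fragments of the construct and of the endogenous gene cannot be told apart. The words at least stand here for a damaged decimal point: where a deposited value of 1 FPKM or more had lost its point, the ratio of the 2 groups was settled but the absolute level could be larger by a power of 10, and the lowest level the digits allow is given. The podocyte markers SYNPO, CD2AP, PODXL and WT1 reached 0.2 FPKM, with WT1 at 0.412 FPKM in LATS2 OE and 0.413 FPKM in untreated samples, while NPHS1, which encodes nephrin of the slit diaphragm, was near 0 with 0.00616 and 0.00875 FPKM. Markers of other kidney and blood cells reached the limit for 3 of 10 genes, PDGFRB, AQP1 and CD14, one each for mesangial, tubular and leukocyte cells. Mesangial markers summed to at least 1.57 FPKM in LATS2 OE and 1.79 FPKM in untreated samples, tubular markers to at least 1.28 and 1.32 FPKM, leukocyte markers to 0.305 and 0.266 FPKM, and the 3 endothelial markers, all near 0, to 0.0518 and 0.0550 FPKM. Their part in the results was not tested.

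Long intergenic noncoding RNAs are transcribed by RNA polymerase II, mostly spliced and polyadenylated, but carry no long reading frame. They are usually less abundant and more restricted to single cell types than messenger RNAs. Some act in cis on neighbouring genes, some bind proteins or microRNAs, and several were later found to encode small proteins. LATS2 phosphorylates the coactivator YAP and so keeps it away from the TEAD factors, which bind DNA for it.

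Low level was the rule among the LINC rows. In the table, 397 of the 858 rows were listed at 0 in both groups, 49 in LATS2 OE only and 42 in untreated samples only, and in these 91 the other group did not exceed 0.0579 FPKM. The limit of 0.2 FPKM was reached by 146 of 858 LINC rows and by 16349 of all 29004 rows. No member was listed at 0 in either group. Of the 146 members, 136 reached the limit in both groups, 7 only in LATS2 OE and 3 only in untreated samples. At least 1 FPKM was reached in both groups by 73 members, in 1 group by 3 and in neither by 70. The level was settled for 75 members, while 17 had 2 and 54 had 3 possible levels. Because the limit chose the members, these counts describe the selection. Just inside it lay LINC01590 with 0.201 FPKM in LATS2 OE and 0.156 FPKM in untreated samples, LINC00337 with 0.202 and 0.189 FPKM, and LINC00539 with 0.148 and 0.208 FPKM. Just outside it lay LINC00319 with 0.198 FPKM in LATS2 OE and 0.199 FPKM in untreated samples, a second row of LINC00704 with 0.199 and 0.165 FPKM, and LINC01431 with 0.172 and 0.197 FPKM.

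The LINC genes differed little between LATS2 OE and untreated samples. At least 1.5-fold higher in LATS2 OE were 3 of 146 members (2.05%). The background over all 16258 rows at the same limit and above 0 in both groups was 4.02%. At least 1.5-fold lower were 7 of 146 members (4.79%), and here too the background was 4.02%. The lower share was near this background, and the higher share rested on 3 rows. The background is not matched on level: 51.4% of members and 76.3% of all rows had a mean of at least 1 FPKM. Under a mean of 0.5 FPKM, 6.98% of members were lower, beside 12.5% of all rows. At a mean of at least 1 FPKM it was 4% beside 2.09%. Counts for each level follow below. The median log2 ratio of LATS2 OE to untreated was -0.03 over the members and 0.000525 over all rows. Between the lower and the upper quartile the members ran from -0.18 to 0.11 on the log2 scale, against -0.09 to 0.10 for all rows, and 86 of 146 members had a ratio below 0. One member, LINC00565, differed at least 2-fold, where 2.63% of all rows did so in either direction.

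**Figure D1:**
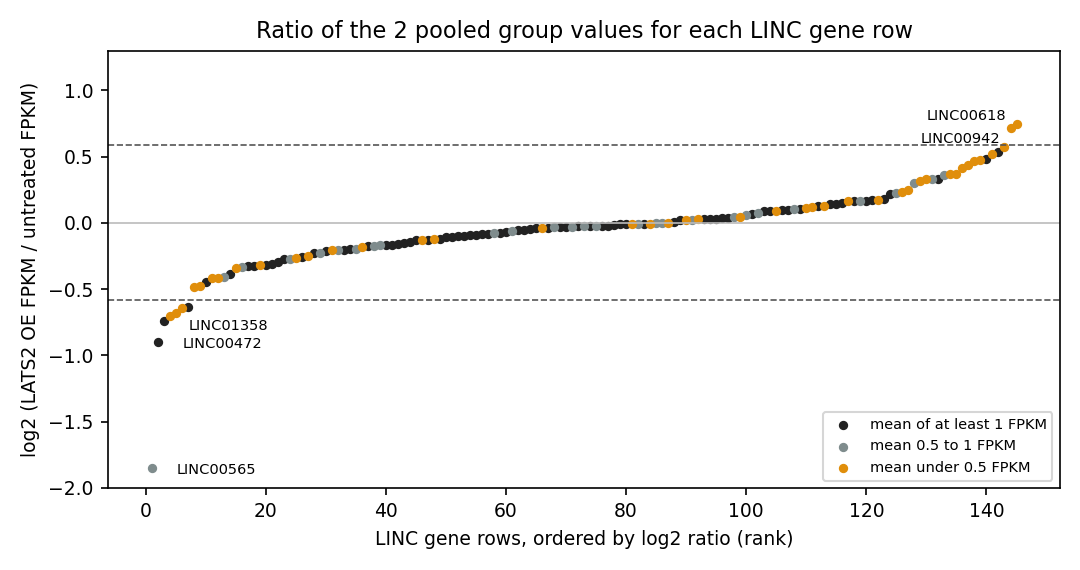
Each point is 1 of 145 LINC gene rows (1 member on the Y chromosome is not drawn), ordered along the x axis by the log2 ratio of its pooled FPKM in LATS2 OE to that in untreated samples (y axis). Colors give the mean level of both groups and dashed lines mark 1.5-fold. LINC00565 lies apart at -1.85, LINC00472 and LINC01358 follow at -0.90 and -0.74, and LINC00618 and LINC00942 lie above the upper line at 0.75 and 0.72.

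The 9 called members described here came from 8 chromosomes, and a further member at least 1.5-fold higher is counted but not described. LINC00565, now named SWINGN, differed most. SWINGN is a noncoding RNA known from other human cells to bind the SWI/SNF chromatin remodeler and to act on GAS6, its neighbour gene. It had 0.283 FPKM in LATS2 OE and 1.02 FPKM in untreated samples, a log2 ratio of -1.85 or 3.61-fold lower. Its locus, chr13:114629487-114636561 in hg19, overlapped no other row of the table, and the gene is annotated as a single exon on the minus strand. LINC00472, described as a growth-restraining RNA in breast cancer cells, had at least 1.86 FPKM in LATS2 OE and at least 3.46 FPKM in untreated samples, with a log2 ratio of -0.90 (chr6:72020192-72168575). LINC01358 on chromosome 1 had at least 1.21 FPKM in LATS2 OE against at least 2.02 FPKM in untreated samples, with a ratio of -0.74. LINC01186 on the X chromosome had at least 1.73 FPKM against at least 2.69 FPKM, with a ratio of -0.63. These 3 rows were the only called members with a mean of at least 1 FPKM.

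The remaining called members were low. LINC00702 on chromosome 10 had 0.304 FPKM in LATS2 OE and 0.496 FPKM in untreated samples, a log2 ratio of -0.70. LINC01569 on chromosome 16 had 0.137 and 0.220 FPKM, a ratio of -0.68, and a row of LINC00452 on chromosome 13 had 0.204 and 0.318 FPKM, a ratio of -0.64. Among the members called higher, LINC00618 on chromosome 14 had 0.540 FPKM in LATS2 OE and 0.321 FPKM in untreated samples, a ratio of 0.75, and LINC00942 on chromosome 12 had 0.277 and 0.169 FPKM, a ratio of 0.72. All of these had less than 0.6 FPKM in both groups, so each of their calls rested on a difference that is small in absolute level. The study gives the depth for the sequencing run as a whole, and the split over samples is unknown.

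**Figure D2:**
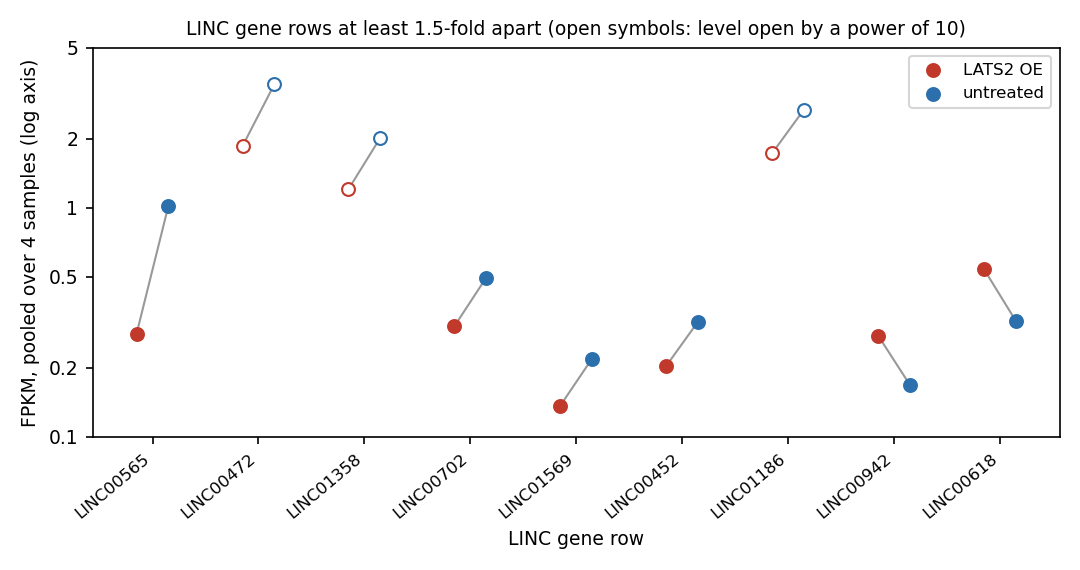
Pooled FPKM on a log axis for the 9 LINC gene rows described here that were at least 1.5-fold apart, with LATS2 OE in red on the left of each pair and untreated in blue on the right. Open symbols stand at the lowest level that the digits allow. LINC00565 spans 0.283 FPKM in LATS2 OE to 1.02 FPKM in untreated samples, and LINC00472, LINC01358 and LINC01186 are the called rows of higher level.

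The promoters of 4 called members with 1 of the searched motifs, and of the called members with the largest difference, LINC00565 and LINC00472, are shown so that the region upstream of the named RNAs can be read. Each is the RefSeq window of 250 bases before and 50 after the annotated start in GRCh38.p14, given 5′ to 3′ on the strand of the gene. Short motifs were searched on both strands: GGAATG, the core bound by TEAD factors, and TGANTCA, bound by AP-1 (JUN and FOS dimers). Capitals mark a match.
LINC00565 (SWINGN), chr13:113928942-113929241, minus strand: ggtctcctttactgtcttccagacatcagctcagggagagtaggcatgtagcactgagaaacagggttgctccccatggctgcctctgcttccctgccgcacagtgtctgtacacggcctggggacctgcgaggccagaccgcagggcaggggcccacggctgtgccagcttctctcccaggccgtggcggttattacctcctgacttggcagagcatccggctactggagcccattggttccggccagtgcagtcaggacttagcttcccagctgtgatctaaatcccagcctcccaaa
LINC00472, chr6:71420696-71420995, minus strand: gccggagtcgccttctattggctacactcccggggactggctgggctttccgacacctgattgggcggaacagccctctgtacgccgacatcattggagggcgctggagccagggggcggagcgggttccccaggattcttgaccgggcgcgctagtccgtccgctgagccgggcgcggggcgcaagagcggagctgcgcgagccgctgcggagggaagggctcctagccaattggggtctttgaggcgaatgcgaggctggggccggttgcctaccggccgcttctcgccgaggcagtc
LINC01358, chr1:59020226-59020525, plus strand: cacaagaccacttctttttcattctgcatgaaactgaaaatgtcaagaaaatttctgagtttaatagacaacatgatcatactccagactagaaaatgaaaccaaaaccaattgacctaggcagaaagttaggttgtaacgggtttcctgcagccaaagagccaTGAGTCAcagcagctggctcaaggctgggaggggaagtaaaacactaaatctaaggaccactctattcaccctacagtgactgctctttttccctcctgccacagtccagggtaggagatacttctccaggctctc
LINC00702, chr10:4243863-4244162, minus strand: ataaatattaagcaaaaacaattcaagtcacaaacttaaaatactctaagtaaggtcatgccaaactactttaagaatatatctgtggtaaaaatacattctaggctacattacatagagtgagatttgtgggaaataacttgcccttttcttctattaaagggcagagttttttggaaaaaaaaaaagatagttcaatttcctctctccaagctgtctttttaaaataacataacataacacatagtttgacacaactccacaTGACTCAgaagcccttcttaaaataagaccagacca
LINC01186, chrX:46327625-46327924, minus strand: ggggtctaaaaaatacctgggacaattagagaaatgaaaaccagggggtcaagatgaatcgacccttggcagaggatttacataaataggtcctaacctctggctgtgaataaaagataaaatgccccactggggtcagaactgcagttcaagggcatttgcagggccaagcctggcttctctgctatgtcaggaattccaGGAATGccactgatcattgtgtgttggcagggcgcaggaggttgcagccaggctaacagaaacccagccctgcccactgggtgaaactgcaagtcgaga
LINC00618, chr14:96943329-96943628, plus strand: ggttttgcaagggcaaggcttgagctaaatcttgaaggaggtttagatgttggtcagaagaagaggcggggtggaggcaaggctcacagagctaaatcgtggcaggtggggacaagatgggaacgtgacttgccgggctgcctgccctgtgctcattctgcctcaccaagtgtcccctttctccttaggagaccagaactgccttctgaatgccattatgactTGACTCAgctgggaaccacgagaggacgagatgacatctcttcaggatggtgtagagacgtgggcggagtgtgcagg
GGAATG stood once in the LINC01186 window, 49 bases before the start, and in neither LINC00565 nor LINC00472. TGANTCA stood 86 bases before the start of LINC01358, 27 before that of LINC00618 and 14 after that of LINC00702. Of the 141 names, 112 matched a RefSeq window. GGAATG was in 15 of these 112 (13.4%) and in 14% of all 35116 windows of the same length, and TGANTCA in 13 of 112 (11.6%) and in 7.71% of all windows. GGAATG was in 1 of 6 windows of members called lower and in 0 of 3 called higher, and TGANTCA in 2 of 6 and 1 of 3. The matches describe letters only. The base composition of the windows was like that of other genes, with a median GC content of 61% over the members and 58.7% over all windows, but LINC00472 (68.7% GC, 31 CpG) and LINC00702 (31.3% GC, 0 CpG) lay far apart.

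Where a lower LINC gene had a measured neighbour, the ratios were set side by side. LINC00472 spans the genes of the microRNAs miR-30c and miR-30a on its own strand. The miR-30 family is abundant in podocytes. The mature RNAs share the seed, bases 2 to 8, which stands in capitals in the RefSeq sequences.
hsa-miR-30c-5p: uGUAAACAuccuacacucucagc
hsa-miR-30a-5p: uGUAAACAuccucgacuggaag
The hairpin of MIR30C2 lies over an annotated exon of LINC00472, and that of MIR30A over none. The table gave the rows of LINC00472, MIR30C2 and MIR30A the same locus of 148384 bp. The MIR30C2 row had 0.437 FPKM in LATS2 OE and 0.857 FPKM in untreated samples, with a log2 ratio of -0.97, beside -0.90 for LINC00472, and MIR30A was listed at 0 in both groups. Libraries of polyadenylated RNA do not measure mature microRNAs, and fragments of the MIR30C2 hairpin and of the LINC00472 exon cannot be told apart. OGFRL1, on the opposite strand, had a row locus 1271 bp from that of LINC00472 in the table, but in the GENCODE annotation, where LINC00472 is longer, exons of both genes overlap and their fragments cannot be told apart. It had at least 8.81 FPKM in LATS2 OE and at least 11.4 FPKM in untreated samples, with a ratio of -0.38. LINC01569 lay 3397 bp from TFAP4, a transcription factor gene with a ratio of -0.52 and at least 4.41 FPKM in LATS2 OE against at least 6.31 FPKM in untreated samples. LINC00942 lay 4558 bp from ERC1, which had a ratio of 0.05. No named row lay within 10 kb of LINC01358, LINC00702, LINC00618 or LINC01186. For LINC01358 the nearest annotated coding start was that of JUN, at a ratio of -0.05, and for LINC01186 that of KRBOX4, also at -0.05.

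The rows around GAS6 on chromosome 13 were then read in order, a stretch chosen after the values of LINC00565 and LINC00452 had been seen. GAS6 encodes a secreted ligand of the receptor AXL and its relatives. GAS6 itself had at least 1.91 FPKM in LATS2 OE and at least 2.18 FPKM in untreated samples, a log2 ratio of -0.19. Its antisense RNA GAS6-AS1 had 2 rows over the same locus, with ratios of -0.29 and -0.69, and GAS6-AS2, which starts beside GAS6, had at least 3.03 FPKM in LATS2 OE against at least 5.17 FPKM in untreated samples, a ratio of -0.77. Farther along lay the 2 rows of LINC00452, with ratios of -0.64 and -0.41, and then LINC00565 at -1.85. All 7 rows from GAS6-AS1 to LINC00565 were thus lower in LATS2 OE, 4 of them past 1.5-fold, where the background over all rows was 4.02%. The 4 include LINC00565 and a row of LINC00452, for which the stretch was chosen, so the count describes that choice. The outer genes TMEM255B and RASA3 had ratios of 0.12 and 0.13. As the kit did not mark strand, fragments of GAS6 and GAS6-AS1, which overlap, cannot be told apart, nor those of the 2 LINC00452 rows. LINC00565 shared no locus with any of them.

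**Figure D3:**
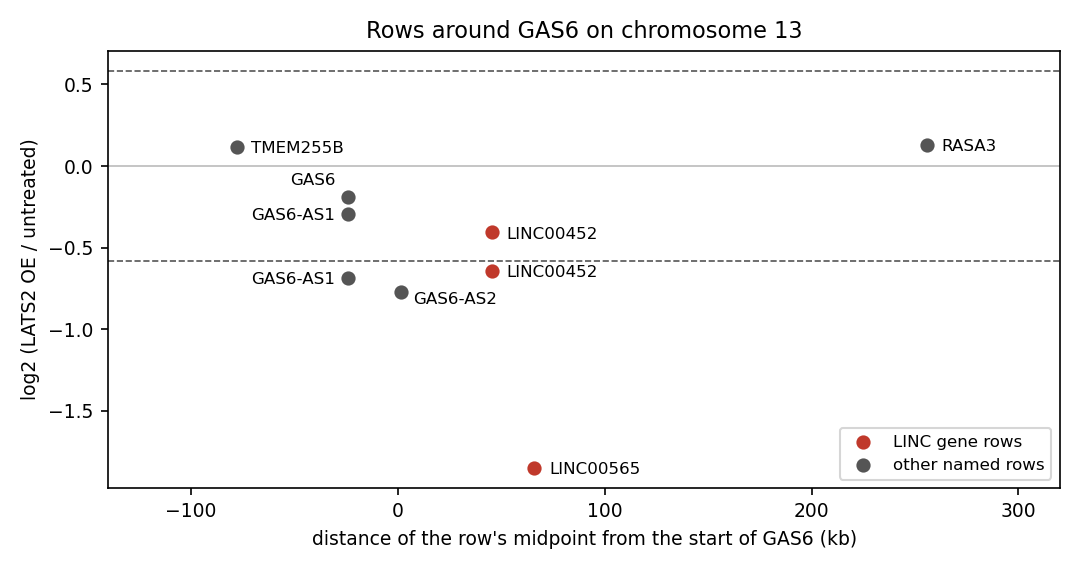
Log2 ratio of LATS2 OE to untreated (y axis) for the rows of at least 0.2 FPKM around GAS6, against the distance of each row's midpoint from the start of GAS6 in kb (x axis). LINC gene rows are red, other rows gray, and dashed lines mark 1.5-fold. The ratios lie at 0.12 and 0.13 at both ends and below 0 between, down to -1.85 at LINC00565.

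The members just short of the call on the higher side held several RNAs described in cancer cells. So did lower and unchanged members, such as LINC00472 and LINC00941, and no share over all members was counted. LINC00460, raised in many carcinomas, had 0.492 FPKM in LATS2 OE and 0.331 FPKM in untreated samples, a log2 ratio of 0.57. LINC00673, described in pancreatic cancer, had at least 12.9 FPKM against at least 8.89 FPKM, a ratio of 0.53, which was the highest among members with a mean of at least 1 FPKM. LINC00346, now PRECSIT, a p53-regulated RNA, had 0.539 and 0.375 FPKM in LATS2 OE and untreated samples, a ratio of 0.52. LINC01036 followed with 1.33 FPKM in LATS2 OE and a ratio of 0.48, and then LINC01530, LINC01461 and LINC00672 with ratios of 0.47, 0.47 and 0.44, all below 0.4 FPKM. On the lower side, LINC00539, LINC00882 and LINC01547 had ratios of -0.49, -0.47 and -0.45. LINC00673 lies between SOX9 and SLC39A11 on chromosome 17, another stretch read after its value was seen. The midpoint of its row lay 377 kb from the start of SOX9. SOX9, a transcription factor gene, had 0.385 FPKM in LATS2 OE and 0.218 FPKM in untreated samples, a ratio of 0.82. Of all rows with a mean under 0.5 FPKM, 15.1% were called higher. After LINC00673 came an unnamed row at 0.04, LINC00511 with 0.294 against 0.247 FPKM, a ratio of 0.25, and SLC39A11 at -0.01. Whether these ratios are related was not tested.

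Most members of high level, taken at the lowest level the digits allow, had a ratio near 0, LINC00673 apart. LINC00998, which is now known as SMIM30 and encodes a small membrane protein, had 71.4 FPKM in LATS2 OE and 71.8 FPKM in untreated samples, a log2 ratio of -0.01, and was the highest member whose level was settled. LINC00657, now NORAD, a single-exon RNA that binds PUMILIO proteins, had at least 9.88 FPKM in LATS2 OE and at least 10.2 FPKM in untreated samples, a ratio of -0.05. By the mean of both groups at the lowest possible level, the other members among the highest 10 were LINC00673, LINC01184 (-0.01), LINC01000 (-0.04), LINC00467 (-0.28), LINC00506 (-0.13), LINC01508 (-0.03), LINC01515 (-0.13) and LINC00669, whose ratio was -0.03. Neither the order among them nor which members belong to the highest 10 is settled. Each of these except LINC00998, and other members with an open level, could be higher by a power of 10.

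Of a list of 24 LINC genes with a described role, 19 reached the limit, none was called higher and 1, LINC00472, was called lower (5.26%, beside 4.02% of all rows in each direction), with a median log2 ratio of -0.01 against 0.000525 over all rows. LINC00152, now CYTOR, an RNA named for its part in the cytoskeleton, had at least 3.02 FPKM in LATS2 OE and at least 3.49 FPKM in untreated samples, a ratio of -0.21. LINC00467, described as a MYCN target in neuroblastoma cells, stood at -0.28. LINC00941, also described in carcinomas, had 4.54 and 4.45 FPKM, a ratio of 0.03. LINC00704, the mitosis-associated RNA MANCR, had 0.280 FPKM in LATS2 OE and 0.373 FPKM in untreated samples in its member row, a ratio of -0.41, and its second row, just under the limit, had a ratio of 0.27. LINC00963, LINC00312 and LINC00324 stood at -0.03, -0.02 and 0.05, and LINC00847 at 0.17. LINC00520, LINC00607, LINC01133, LINC00261 and LINC00473 did not reach the limit.

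Several LINC names are no longer noncoding genes. Of 135 members matched to the GENCODE annotation, 120 were long noncoding RNA genes, 10 were protein-coding genes and 3 had a pseudogene type. None of the 10 coding ones was called, and their log2 ratios ran from -0.25 for LINC00959 to 0.44 for LINC00672, with a median of -0.01. LINC00116, now MTLN, which encodes the mitochondrial micropeptide mitoregulin, had a ratio of 0.07. LINC01420, now NBDY, whose product acts on P-bodies, stood at 0.09. LINC00961, now SPAAR, whose small protein restrains mTORC1 at the lysosome, had 0.630 FPKM in LATS2 OE and 0.707 FPKM in untreated samples, a ratio of -0.17. LINC00493 (SMIM26) stood at -0.04 and LINC00094 (BRD3OS) at 0.13. Among the members, 5 names had 2 rows over 1 locus, and in LINC01572 these ran apart, with 0.996 FPKM in LATS2 OE against 0.806 FPKM in untreated samples in one (0.31) and 0.345 against 0.460 FPKM in the other (-0.41).

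The spread of the ratios depended on the level. With no limit, 62 of 370 LINC rows above 0 in both groups were at least 1.5-fold higher and 57 lower, with backgrounds over all 20626 such rows of 8.67% and 6.61%, and most of these LINC rows were low. Of the 43 members with a mean under 0.5 FPKM, 3 were called higher and 3 lower (6.98% each), with a background at that level of 15.1% higher and 12.5% lower. Of the 28 members with a mean of 0.5 to 1 FPKM, 0 were called higher and 1 lower, with backgrounds of 6.4% and 6.03%. Among the 75 members with a mean of at least 1 FPKM, 0 were called higher and 3 lower (4%), with backgrounds of 1.52% and 2.09%. In this highest band 50 of 75 members (66.7%) had a ratio below 0, against 51.5% of all rows of the band, and the medians were -0.05 and -0.00408. The next lowest there after the called rows were LINC01547 at -0.45, LINC00476 at -0.39, and LINC01322 and LINC00857 at -0.33 and -0.32. These differences are small beside the range of the band, and without replicates their error is unknown.

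**Figure D4:**
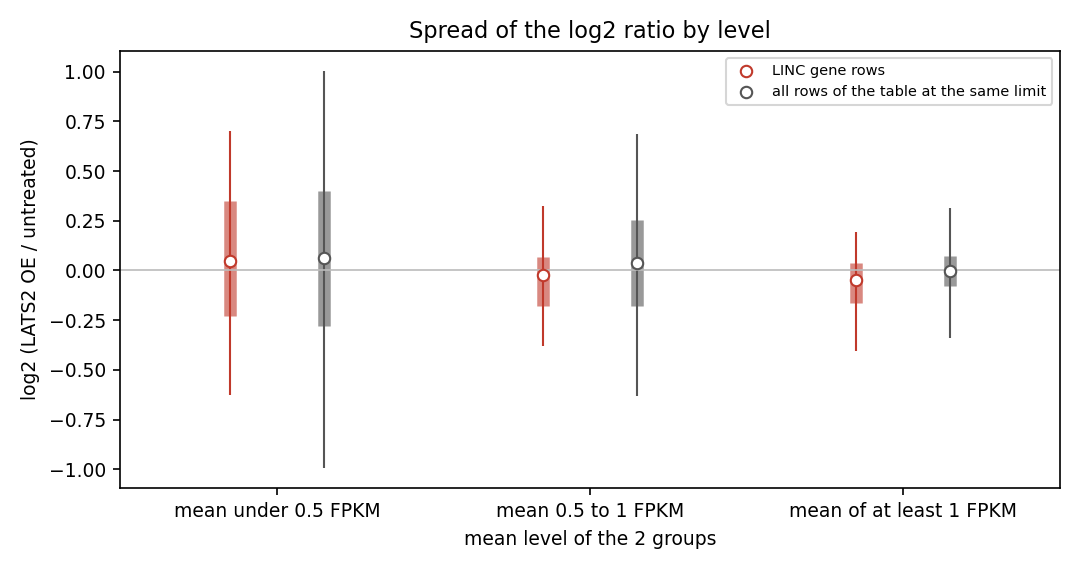
Log2 ratio of LATS2 OE to untreated (y axis) for LINC gene rows (red) and all rows of at least 0.2 FPKM in 1 group (gray), in 3 bands of mean level (x axis). Circles are medians, thick bars the interquartile range, thin lines the 5th to 95th percentile of rows. Both sets are widest under 0.5 FPKM, and the LINC median lies at -0.05 in the highest band, where that of all rows lies at -0.00408.

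Some LINC genes start beside a coding gene, but most do not. Of the 125 matched members that are not coding, 22 had an exon over a coding exon, 17 had a coding start within 1000 bp, 14 of these on the opposite strand, and 42 lay more than 100 kb from any coding start, with a median distance of 52403 bp. In 13 of the 14 opposite-strand pairs the coding gene was measured too. None of the 13 LINC genes and none of their coding partners was called. LINC01547 had a log2 ratio of -0.45 and FAM207A, 84 bp away, had -0.34. LINC01089 and SETD1B both stood at 0.18, while LINC01573 had -0.17 and NOTCH1, which encodes a receptor, had 0.23. The signs were the same in 7 of 13 pairs. Across the 13 pairs Pearson's r was 0.63 and Spearman's rho 0.57. Without LINC01547 and LINC01534, the members whose ratios lay farthest from the median, r was 0.30 over 11 pairs. Leaving out members by their own ratio narrows the range and can by itself lower r. Which pairs the relation rested on was not tested. The pairs share the same pooled libraries and are no replicates, and near the shared start fragments of both genes cannot be told apart without strand.

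**Figure D5:**
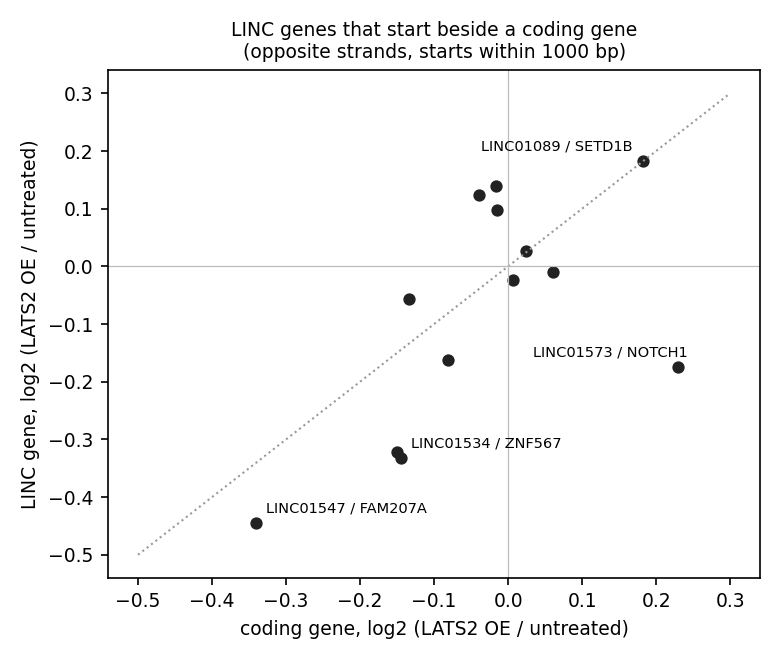
Log2 ratio of LATS2 OE to untreated for 13 LINC genes (y axis) against that of the coding gene that starts within 1000 bp on the opposite strand (x axis). Each point is 1 pair and the dotted line marks equal ratios. LINC01547 with FAM207A lies lowest at -0.45 and -0.34, and LINC01573 with NOTCH1 lies off the line at -0.17 and 0.23.

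Noncoding genes of other name classes were set beside the LINC genes. The background at the same limit was again 4.02% in each direction. Antisense genes (418 rows at the limit) had 18 rows called higher (4.31%) and 21 lower (5.02%), and genes known only by a LOC number (370 rows) had 22 higher (5.95%) and 16 lower (4.32%), each class with a median log2 ratio of -0.03, the same as the LINC genes to 2 decimals. The 11 small nucleolar RNA host genes had a median of -0.14 with 9 of 11 below 0 and none called, and the 5 microRNA host genes had a median of 0.16 with 4 of 5 above 0 and none called. Of a list of 49 other named long noncoding RNAs, 37 had a row, 29 reached the limit in 30 rows and none was called. Some of them, such as SNHG15, MIR31HG and OIP5-AS1, also belong to the classes above. The 30 rows ran from UCA1 at -0.52 to HOTAIR at 0.37, with a median of -0.04. The differences between classes were not tested.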

How the data were processed

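RNA of 4 LATS2 OE and 4 untreated samples was sequenced as single reads from polyadenylated RNA with a kit that does not mark strand. Per the labels and the study's methods, trimming was done with Trimmomatic 0.33, alignment to hg19 with TopHat, and FPKM values came from the Cufflinks package. No source used here gives the versions of TopHat and Cufflinks or the gene annotation. Each group has 1 deposited FPKM value per gene, pooled by the authors over its 4 samples, with no replicate values. Columns of the authors' test (statistic, p, q, fold change) were not used as results. The log2 fold change column served only to put back decimal points lost from values of 1 or more. The pair of FPKM values within 0.002 of it was kept, and 20626 rows gave 1 ratio each. The step recovered the ratio of 2000 of 2000 pairs simulated for LATS2 OE over untreated. Points were removed there by the rule the step assumes, so this cannot show how the deposited values were damaged. Among the deposited rows, 10 could not be fitted.

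Ratios were computed without a pseudocount in Python 3.11.15 with numpy 2.4.6 and pandas 2.3.3, and drawn with matplotlib 3.10.9. Locus starts were shifted by 1 to count from 1. Gene types came from GENCODE on GRCh37 and promoters and microRNAs from RefSeq. Named genes were LATS2, the 10 highest and 10 lowest ratios, the 10 highest levels, the list of LINC genes with a described role, rows at the limit, genes within 10 kb of a called member and, from the list of other named long noncoding RNAs, those called. UCA1, HOTAIR, the rows of the GAS6 and SOX9 stretches, the divergent pairs and further examples were chosen after their values were seen. Members and lists were chosen with earlier results of these data known. Alternatives were other pseudocounts, level limits, fold thresholds, centring, overlap filters and point placement. Depth is stated for the whole run, not per sample. The values of 1 member and of some marker genes are not reported here.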

Additional observations from a re-analysis of the deposited data

How the results depend on the processing

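The counts of called members depended on how low values were treated. The 3 of 146 members at least 1.5-fold higher in LATS2 OE became 0 with a pseudocount of 1 FPKM and 0 with a call at 2-fold. The 7 of 146 lower members became 4 with a pseudocount of 0.1 FPKM, 2 with 1 FPKM and 1 with a call at 2-fold. A stricter limit also left fewer members. At 0.5 FPKM, 1 of 105 members was higher and 4 of 105 lower. At 1 FPKM, 0 of 76 were higher and 4 of 76 lower. No background was computed with a pseudocount or at these limits. Among all rows with a mean of at least 1 FPKM, 1.52% were higher and 2.09% lower. With no limit, 62 of 370 LINC rows above 0 in both groups were called higher (16.8%) and 57 lower (15.4%), beside 8.67% and 6.61% of all 20626 such rows. Requiring the limit in both groups, leaving out rows that overlap others or, chosen after seeing the data, members now coding or the member on the Y chromosome, kept both counts within 1.5 times of those reported. Centring, which moved each ratio by only 0.000525, and placing points without the log2 column left both counts as they were. The median log2 ratio stayed between -0.05 and -0.01. Of the 9 called genes named, LINC00702, LINC01569, LINC00452 and LINC00942 were under 1.5-fold with a pseudocount of 0.1 FPKM, and all but LINC00565 and LINC00472 with 1 FPKM. Pseudocounts were added at the lowest level the digits allow. LINC01358 and LINC01186, whose level is open, would move less at a higher level, so the loss of their calls is not settled. The 9 genes kept their direction, but pseudocounts and centring could not have changed it. An equal pseudocount in both groups keeps the sign of a ratio, and centring moved each ratio by only 0.000525. No paired analysis was possible because the table holds pooled values, and leaving out single replicates could not be run for the same reason. Without replicates or the depth per sample the error of a ratio is unknown, most of all for the 70 members below 1 FPKM.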

Other observations

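Below the limit, 47 LINC rows had 0.1 to 0.2 FPKM in the higher group, of which 8 were at least 1.5-fold higher in LATS2 OE and 6 lower, where all 890 rows of that level had 17.4% higher and 8.65% lower. LINC00521 had 0.197 FPKM in LATS2 OE and 0.0437 FPKM in untreated samples, a log2 ratio of 2.17. LINC01058 had 0.106 and 0.0286 FPKM, a ratio of 1.88, and LINC00239 had 0.0383 and 0.120 FPKM, a ratio of -1.65. These 3 were chosen after their values were seen.

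The name rule left out 14 rows at the limit in which a LINC name stood beside another name or in another form. None was called, 11 of 14 had a ratio below 0, and their median was -0.14. The lowest were both rows of DUXAP10,LINC01296, a pseudogene and a LINC gene, at -0.57 and -0.54. LINC-PINT, a p53-induced RNA, had 0.862 FPKM in LATS2 OE and 1.21 FPKM in untreated samples in 1 row, a ratio of -0.49, and 0.312 and 0.315 FPKM in the other, a ratio of -0.02.

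Within the stretch from KLF6 on chromosome 10, KLF6, a zinc finger transcription factor gene, had a ratio of 0.04 beside -0.70 for LINC00702, and an unnamed row between KLF6 and LINC00702 had 0.368 FPKM in LATS2 OE and 0.219 FPKM in untreated samples, a ratio of 0.75.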
